A study of Mus musculus with 20 samples.

Results

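Genes that glucocorticoids are known to induce in many tissues were followed gene by gene in the arcuate nucleus of mice given corticosterone (Cort). The 33 genes were chosen by symbol, joined by gene identifier to the raw counts, and 32 of the 33 had a row among the 22048 genes of the count tables. The choice was made with earlier results of these data known. The study itself reports Fam107a, Glul and Mt2 as higher with Cort at 2 days and Fam107a at 4 weeks. Setting counts of members against the share of all genes is therefore description, not an independent test. Cebpd was not analysed here. The arcuate nucleus, a hypothalamic nucleus that holds neurons governing food intake, was cut out by laser from brain sections of male C57BL6/J mice, given as 10 weeks old in the description of the treatment, and its RNA was amplified and sequenced in 20 samples. The mice drank water with 75 µg/ml Cort in 1% ethanol, or vehicle with the ethanol alone, for 2 days or for 4 weeks, with 5 samples in each of the 4 groups. At 4 weeks all mice had also been fasted for 16 hours and refed for 24 hours before the tissue was taken. The study left out 2 vehicle samples and 1 Cort sample at each time after principal component analysis, so that 3 vehicle and 4 Cort samples were compared at each time. Section thickness, laser system and sequencer also differed between the times, so that time cannot be told apart from them.

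Glucocorticoids cross the cell membrane and bind the glucocorticoid receptor, which is held in the cytoplasm by heat shock proteins, moves into the nucleus and binds DNA as a pair at short paired sites. The genes it turns on in most cell types encode proteins that damp kinase and inflammatory signalling, bind metals, stop the cell cycle or redirect fuel use, and many of them feed back on the hormone's own action. In the brain the receptor is present in glia and endothelial cells as well as in neurons.

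The libraries held 2487063 to 5748223 counts at 2 days, and those at 4 weeks 1065776 to 5196364. Levels are given as CPM, counts scaled to a common library size with TMM normalisation, with the samples named C01 to C10 within each time as in the count tables. Cort was compared with vehicle by edgeR's quasi-likelihood test over all genes. A gene was called at Padj below 0.1, the threshold of the study, and genes at an unadjusted P below 0.05 are given as a weaker grade. With 3 samples against 4, an exact permutation test of a single gene cannot go below p = 0.0571. Nothing in the labels says whether the samples of a group came from separate mice, so the p-values measure the spread between these samples.

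At 2 days, 28 members had enough counts to be tested, and 2 of them, Fam107a and Glul, were called, both higher with Cort. Over all 12309 genes tested, 0.0569% were called higher. Of the 28, 8 were higher at P below 0.05, namely Fam107a, Glul, Mt1, Mt2, Cdkn1a, Sdc4, Sult1a1 and Angptl4, against 3.14% of all genes. No member was lower at P below 0.05, a grade that 2.83% of all genes reached. The fitted change was above 0 for 24 of the 28, against 52.1% of all genes, and the median log2 fold change was 0.50 over the members and 0.02 over all genes.

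At 4 weeks, 25 members were tested and 1, Fam107a, was called, higher with Cort, against 0.0357% of 11211 genes. At P below 0.05, 6 members were higher, namely Fam107a, Glul, Mt1, Mt2, Sesn1 and Hif3a, against 2.95% of all genes. No member was lower at that grade, against 1.95% of all genes. The fitted change was above 0 for 20 of the 25, against 51.9% of all genes, and the median log2 fold change was 0.63 over the members and 0.04 over all genes.

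Shared genes, 4 in all, were higher at P below 0.05 at both times: Fam107a, Glul, Mt1 and Mt2, of the 25 members tested at both. Among the 11016 genes tested at both times, 0.281% were higher at that grade at both. Cdkn1a, Sdc4, Sult1a1 and Angptl4 reached it at 2 days only and Sesn1 and Hif3a at 4 weeks only. A gene that passes at one time and misses at the other need not differ between them, so the Cort effect at 4 weeks was compared with that at 2 days over the 14 samples. Of the 29 members tested for this difference, Sesn1 alone had P below 0.05, a grade that 6.49% of all genes reached, and its Padj was 0.714. The Cort effect on Cdkn1a, Sdc4, Sult1a1, Angptl4 and Hif3a was therefore not shown to differ between 2 days and 4 weeks. With all 20 samples, Angptl4 (5.18, 0.54 to 9.82 on the log2 scale) and Fam107a (0.69, 0.07 to 1.31) passed at P below 0.05 in place of Sesn1, both with Padj = 0.771 in edgeR. Angptl4 had no count in any of the 5 vehicle samples at 4 weeks, and its highest Cort sample there was the left-out C06, at 8.50 CPM. The share of all genes passing in that fit was not counted.

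**Figure D1:**
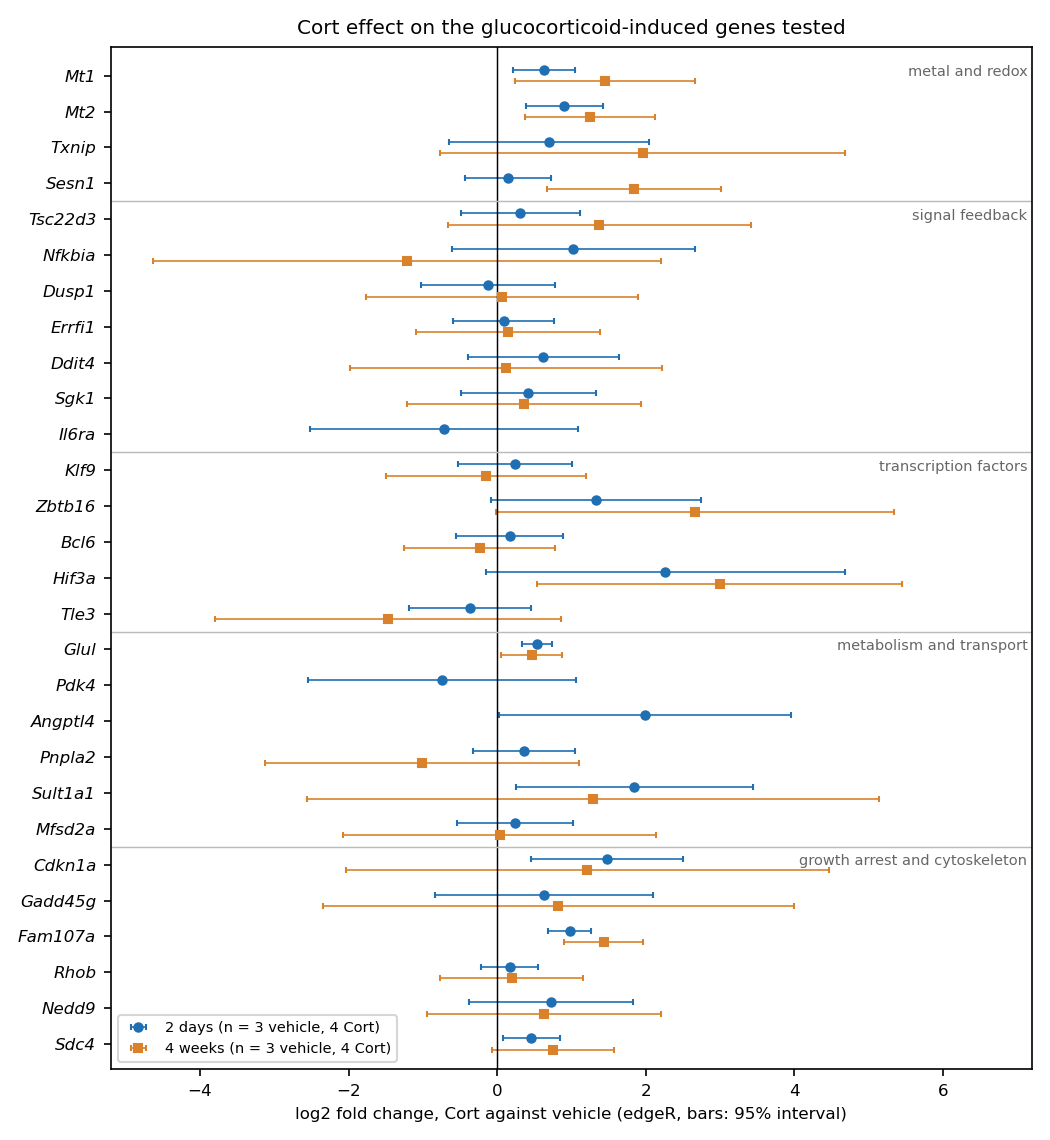
The log2 fold change of Cort against vehicle (horizontal axis) for each member tested, at 2 days (blue circles) and 4 weeks (orange squares), with 95% intervals from edgeR, members grouped by role. The intervals of Fam107a, Glul, Mt1 and Mt2 lie above 0 at both times. Those of all signal feedback genes tested span 0, and for the genes tested at both times they are wider at 4 weeks.

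Fam107a (ENSMUSG00000021750, chr14:8296274-8318023, minus strand, GRCm38) encodes an actin-binding protein that stress and glucocorticoids induce in brain. At 2 days it stood at 464, 535 and 639 CPM in the vehicle samples C02, C04 and C05 and at 1124, 945, 916 and 1282 CPM in the Cort samples C01, C03, C06 and C10. Every Cort sample lay above every vehicle sample. The level rose 1.97-fold (95% interval 1.61 to 2.40), from 546 ± 87.8 (SD, n = 3) to 1067 ± 170.4 CPM (SD, n = 4), with a log2 fold change of 0.98 ± 0.14 (SE) and Padj = 0.00480 in edgeR.

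At 4 weeks Fam107a stood at 364, 210.3 and 223 CPM in the vehicle samples C02, C03 and C04 and at 808, 595, 735 and 762 CPM in the Cort samples C07 to C10. Again no Cort sample fell within the vehicle range. The level rose 2.70-fold (1.87 to 3.92), with a log2 fold change of 1.44 ± 0.25 (SE) and Padj = 0.0966 in edgeR, just under the threshold. Among all 10 samples at 4 weeks the groups still did not overlap, with the 5 vehicle samples at 200.4 to 364 CPM and the 5 Cort samples at 595 to 808 CPM. Padj was then 0.0311 in edgeR, and the exact permutation p of 0.00794 is the smallest that 5 against 5 can give. Fam107a was the 1 member whose groups did not overlap there, against 0.539% of all genes. Among all 10 samples at 2 days the left-out vehicle sample C07, at 1021 CPM, lay inside the Cort range of 916 to 1704 CPM, and Padj was 0.264. The call at 2 days was lost without C02 (Padj = 0.132), and the call at 4 weeks without any 1 of C03, C04, C08, C09 and C10.

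The window of 250 bases before the RefSeq start of a Fam107a transcript is shown because it holds 2 hexamers of the glucocorticoid receptor in the one gene called at both times. It lies at chr14:8309780-8310029 on the minus strand (GRCm38.p6), and capitals mark each hexamer, AGAACA on either strand, and each stretch within 2 mismatches of the full palindrome, which is AGAACA, any 3 bases and TGTTCT. A palindrome may contain a hexamer.
Fam107a: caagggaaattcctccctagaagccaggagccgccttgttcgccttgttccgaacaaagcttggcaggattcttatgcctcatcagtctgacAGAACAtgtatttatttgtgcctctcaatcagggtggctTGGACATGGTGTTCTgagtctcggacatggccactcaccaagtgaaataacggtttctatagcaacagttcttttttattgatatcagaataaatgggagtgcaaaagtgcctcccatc
The palindrome here carries 2 mismatches. Another RefSeq start 2 bases away has almost the same window, and the window of a start further upstream holds neither motif. Windows were found for 29 of the 33 members. A hexamer was present before a start of 5 of the 29, Fam107a, Sgk1, Sult1a1, Bcl6 and Tsc22d3, or 17.2%, against 18.2% of 27025 genes. A palindrome was present for 3 of the 29, Fam107a, Sgk1 and Sult1a1, or 10.3%, against 1.77% of genes. These are matches of letters, not binding sites, and the receptor also binds far from promoters.

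Glul (ENSMUSG00000026473, chr1:153899944-153909723, plus strand) encodes glutamine synthetase, the enzyme with which astrocytes turn glutamate into glutamine. At 2 days it stood at 1195, 1019.6 and 1158 CPM in the vehicle samples C02, C04 and C05 and at 1627, 1719.8, 1516 and 1630.4 CPM in the Cort samples C01, C03, C06 and C10. The groups were apart and narrow, and the level rose 1.45-fold (1.26 to 1.68), with a log2 fold change of 0.54 ± 0.10 (SE) and Padj = 0.0420 in edgeR. Among all 10 samples a vehicle sample, C07, at 1569 CPM, lay within the Cort range, and Padj was 0.744. The call at 2 days was also lost without any 1 of C01, C02, C03, C04, C05 and C10, with Padj up to 0.330.

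At 4 weeks Glul stood at 711, 805 and 1055 CPM in the vehicle samples C02, C03 and C04 and at 1363, 989, 1295 and 1120.2 CPM in the Cort samples C07 to C10. The Cort sample C08 lay below the highest vehicle sample. The log2 fold change was 0.46 ± 0.19 (SE), with P = 0.0293 and Padj = 0.990 in edgeR, and p = 0.114 in the exact permutation test. In edgeR P stayed below 0.05 in 3 of the 7 fits that left out 1 sample. The effect at 4 weeks minus that at 2 days was -0.07 (-0.51 to 0.37) on the log2 scale. Of the 50-base stretches of Glul exons, 12.6% also occur in other genes, among them the pseudogene Glns-ps1, so some reads could not be placed uniquely. Per kilobase of exon, vehicle samples at 2 days had 338 CPM of Glul, 169 of Mt2, 141 of Fam107a and 4.63 of Sgk1. Mt2 shares 73.5% of its exon bases with another gene, so its value may not be comparable with the others.

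Mt1 and Mt2 encode metallothioneins, small proteins that bind zinc and copper and are induced by glucocorticoids as well as by metals. They lie beside each other, Mt2 at chr8:94172664-94173568 and Mt1 at chr8:94179082-94180327, both on the plus strand. Mt1 stood at 112, 73.7 and 131 CPM in the vehicle samples C02, C04 and C05 at 2 days and at 152, 177, 169 and 152 CPM in the Cort samples C01, C03, C06 and C10. The groups did not overlap, and the log2 fold change was 0.63 ± 0.20 (SE), with P = 0.00479 and Padj = 0.546 in edgeR, and p = 0.0571 in the exact permutation test. At 4 weeks Mt1 stood at 20.6, 31.0 and 64.9 CPM in the vehicle samples C02, C03 and C04 and at 179, 59.1, 68.5 and 121 CPM in the Cort samples C07 to C10. The Cort sample C08 lay below the highest vehicle sample, and the log2 fold change was 1.45 ± 0.57 (SE), with P = 0.0224 and Padj = 0.990, and p = 0.114 in the exact permutation test. P stayed below 0.05 in 6 of the 7 fits that left out 1 sample at 2 days and in 3 of 7 at 4 weeks.

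Mt2 stood at 135, 78.7 and 84.4 CPM in the vehicle samples and at 157, 165, 134 and 283 CPM in the Cort samples at 2 days, in the same order of samples. The Cort sample C06 lay just below the highest vehicle sample, and the log2 fold change was 0.90 ± 0.25 (SE), with P = 0.00156 and Padj = 0.443, and p = 0.114 in the exact permutation test. At 4 weeks Mt2 stood at 81.8, 44.2 and 164 CPM in the vehicle samples and at 241, 246, 251 and 185 CPM in the Cort samples. All 4 Cort samples lay above the vehicle samples, and the log2 fold change was 1.25 ± 0.41 (SE), with P = 0.00817 and Padj = 0.918, and p = 0.0571 in the exact permutation test. The vehicle samples left out at 2 days, C07 and C09, stood above most Cort samples compared, at 178 and 189 CPM for Mt1 and 209.8 and 201 CPM for Mt2, and the left-out Cort sample C08 at 385 and 421 CPM. In the 9 samples without C08, neither gene had P below 0.05 at 2 days. In the samples compared, Mt2 kept P below 0.05 at both times whichever of the 7 samples was left out. The effect at 4 weeks minus that at 2 days was 0.83 (-0.34 to 2.00) for Mt1 and 0.34 (-0.69 to 1.38) for Mt2 on the log2 scale, and both intervals included 0. The exons of Mt2 share 73.5% of their bases with Gm45774 on the other strand, and the library kit is not stated to keep the strand. Reads from the shared bases can therefore not be assigned to 1 of the pair, and whether they were counted or dropped is not stated.

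The windows before the RefSeq starts of both genes are shown because metal response elements, the sites of the metal sensor MTF1, can stand beside glucocorticoid control at these genes. Capitals mark the cores TGCACNC and TGCGCNC on either strand, in Mt1 at chr8:94178839-94179088 and in Mt2 at chr8:94172368-94172617, both on the plus strand.
Mt1: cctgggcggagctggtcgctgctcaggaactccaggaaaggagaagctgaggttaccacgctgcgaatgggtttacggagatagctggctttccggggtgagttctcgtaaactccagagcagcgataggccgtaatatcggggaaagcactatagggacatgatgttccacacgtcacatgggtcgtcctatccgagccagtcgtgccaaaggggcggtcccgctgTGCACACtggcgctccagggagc
Mt2: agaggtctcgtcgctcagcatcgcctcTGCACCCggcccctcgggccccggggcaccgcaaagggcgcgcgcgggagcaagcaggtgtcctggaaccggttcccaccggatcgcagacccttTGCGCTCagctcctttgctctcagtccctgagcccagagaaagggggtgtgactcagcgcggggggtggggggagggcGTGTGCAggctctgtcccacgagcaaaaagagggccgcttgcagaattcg
Mt2 has 3 cores in its window, as 1.46% of genes have 3 or more, and Mt1 has 1. At least 1 core was present for 11 of the 29 members with a window, or 37.9%, against 23.8% of genes. Neither window holds a receptor hexamer. GENCODE lists further starts of both genes downstream of these windows, and the bases between were not searched.

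**Figure D2:**
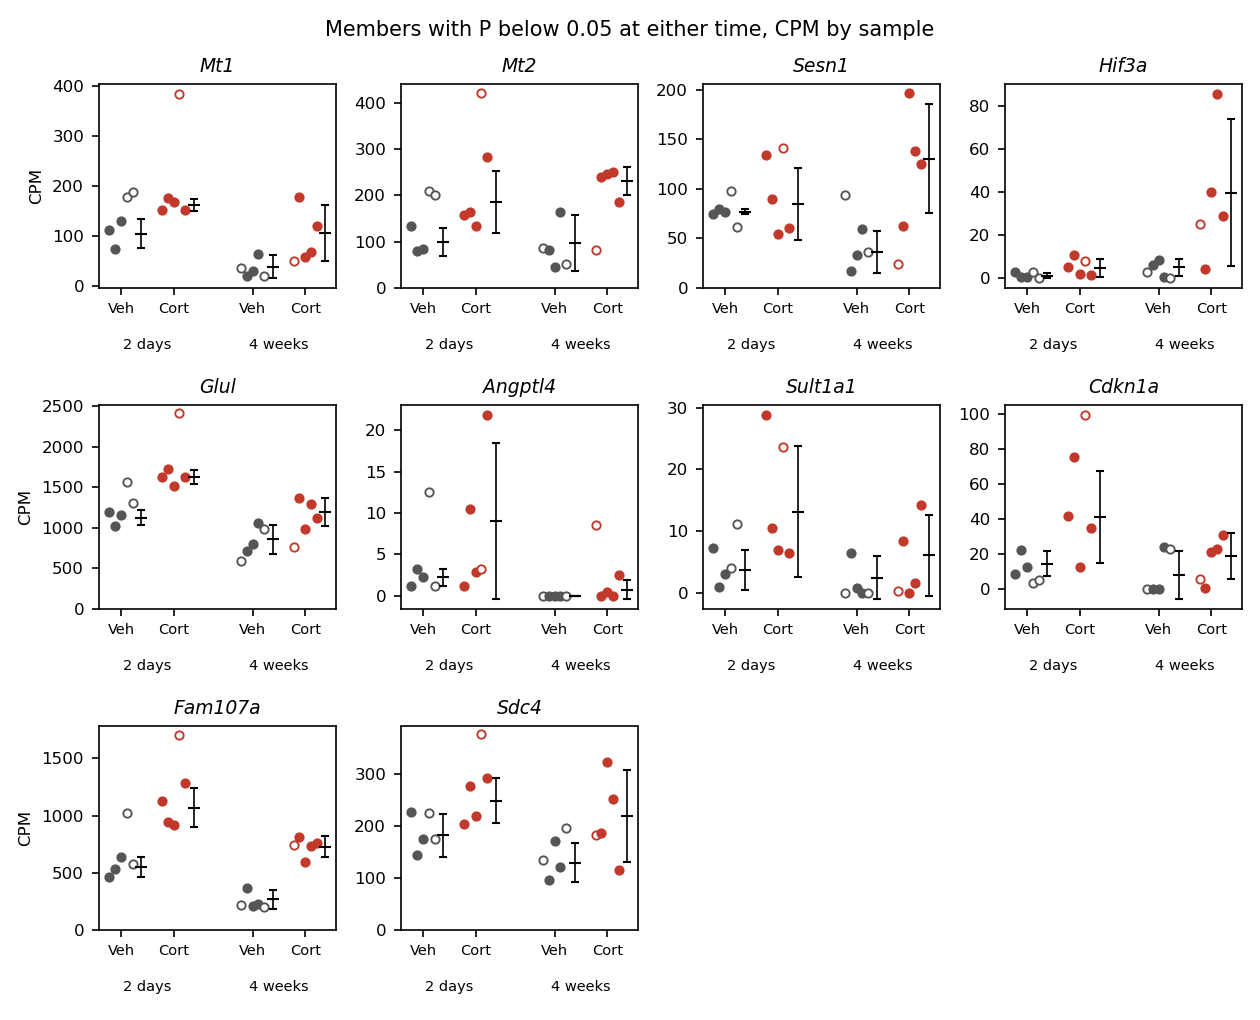
CPM (vertical axes, linear) by sample for the 10 members with P below 0.05 at either time, in vehicle (grey) and Cort (red) at 2 days and 4 weeks. Filled points are the samples compared, open points those left out by the study, and the black bar is the mean ± SD of the filled points. Fam107a at 4 weeks is separated in all 10 samples, whereas Angptl4, Sult1a1, Cdkn1a and Hif3a spread widely within Cort.

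Sesn1 (ENSMUSG00000038332, chr10:41809935-41908424, plus strand) encodes sestrin 1, a stress protein that restrains mTORC1. At 4 weeks it stood at 16.9, 32.6 and 59.1 CPM in the vehicle samples C02, C03 and C04 and at 62.3, 196, 138 and 125 CPM in the Cort samples C07 to C10. The groups did not overlap, and the log2 fold change was 1.84 ± 0.55 (SE), with P = 0.00423 and Padj = 0.889 in edgeR, and p = 0.0571 in the exact permutation test. At 2 days it stood at 74.9, 79.5 and 76.7 CPM in the vehicle samples and at 135, 89.2, 53.9 and 60.5 CPM in the Cort samples, on both sides of the vehicle range, and the log2 fold change was 0.15 ± 0.28 (SE). The effect at 4 weeks exceeded that at 2 days by 1.70 (0.43 to 2.98) on the log2 scale. Among all 10 samples per time the left-out vehicle sample C01 stood at 93.6 CPM and the left-out Cort sample C06 at 23.9 CPM at 4 weeks, and the difference between times was 0.89 (-0.42 to 2.21). DESeq2 on the samples compared gave Sesn1 at 4 weeks Padj = 0.0969. Txnip, the inhibitor of thioredoxin, had a log2 fold change of 0.70 (-0.65 to 2.05) at 2 days and 1.96 (-0.77 to 4.69) at 4 weeks, and 19.4% of its exon bases overlap another gene.

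In the metal and redox group, Mt1, Mt2, Txnip and Sesn1, all 4 fitted changes were above 0 at both times, with medians of 0.66 at 2 days and 1.65 at 4 weeks. Of all genes, 52.1% and 51.9% were above 0 at these times. Without C01 the change of Sesn1 at 2 days was -0.17.

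Of the members that arrest the cell cycle or act on the cytoskeleton and cell surface, 6 were tested at each time. All 6 fitted changes were above 0 at both, against 52.1% and 51.9% of all genes, with medians of 0.68 and 0.79. Cdkn1a encodes p21, an inhibitor of cyclin-dependent kinases. In the 2 day set it stood at 8.96, 22.4 and 12.8 CPM in the vehicle samples C02, C04 and C05 and at 41.7, 75.4, 12.7 and 35 CPM in the Cort samples C01, C03, C06 and C10. C01, C03 and C10 lay above the vehicle range and C06 lay inside it, and the log2 fold change was 1.48 ± 0.49 (SE), with P = 0.00678 and Padj = 0.592, and p = 0.171 in the exact permutation test. With the left-out samples it was 2.32 ± 0.51 (SE), with Padj = 0.272. At 4 weeks Cdkn1a stood at 0.338, 0 and 24.2 CPM in vehicle and at 0.825, 21.2, 23.2 and 31.0 CPM in Cort, an overlap in which each group held samples near 0, and the log2 fold change was 1.22 (-2.03 to 4.46). Leaving out 1 sample moved it between 0.64 and 6.46, the latter without the vehicle sample C04. Without C04 the effect at 4 weeks exceeded that at 2 days by 5.0 on the log2 scale, at P below 0.05 with Padj = 0.619 in edgeR.

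Sdc4 encodes syndecan 4, a heparan sulphate proteoglycan of focal adhesions. Its level at 2 days was 226, 143 and 175 CPM in vehicle and 203, 276, 219.9 and 293 CPM in Cort. The groups overlapped, and the log2 fold change was 0.46 ± 0.18 (SE), with P = 0.0204 and Padj = 0.754, and p = 0.171 in the exact permutation test. Without any 1 of C03, C04, C05 and C10, P was no longer below 0.05. At 4 weeks Sdc4 ranged from 95.7 to 170.5 CPM in vehicle and from 115 to 323 CPM in Cort, with a log2 fold change of 0.75 (-0.07 to 1.57). Gadd45g, a growth arrest gene, Rhob, a small GTPase, and Nedd9, a scaffold of focal adhesions, had log2 fold changes between 0.17 and 0.82 over the 2 times, and every interval included 0. Plekhf1, a lysosomal adaptor, and Lyve1, a hyaluronan receptor of lymphatic vessels and perivascular macrophages, were too low to be tested at either time. Plekhf1 did enter the fit of the difference between times. Plekhf1 had no count in 8 of the 10 samples at 2 days, and Lyve1 had at most 4 counts in any of the 20 samples.

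Among the genes of metabolism and transport besides Glul, Angptl4 and Sult1a1 were higher at 2 days at the weaker grade. Angptl4 encodes an inhibitor of lipoprotein lipase and stood at 1.24, 3.23 and 2.24 CPM in vehicle and at 1.19, 10.4, 2.86 and 21.9 CPM in Cort. Only C03 and C10 lay above the vehicle range, and the log2 fold change was 1.99 ± 0.94 (SE), with P = 0.0477 and Padj = 0.825, and p = 0.400 in the exact permutation test, and P in edgeR was no longer below 0.05 without any 1 of C02, C03, C04, C05 and C10. In all 10 samples it was 0.93 ± 0.84 (SE), with the left-out vehicle sample C07 at 12.6 CPM. At 4 weeks it was too low to be tested, with no count in any of the 5 vehicle samples.

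Sult1a1 encodes a sulphotransferase of phenols. At 2 days it stood at 7.21, 0.862 and 3.05 CPM in vehicle and at 28.8, 10.4, 6.97 and 6.36 CPM in Cort. C01 and C03 lay above the vehicle range, and the log2 fold change was 1.85 ± 0.77 (SE), with P = 0.0256 and Padj = 0.766, and p = 0.171 in the exact permutation test, and P in edgeR was no longer below 0.05 without any 1 of C01, C04 and C05. At 4 weeks it was lower and overlapped, at 0 to 6.43 CPM in vehicle and 0 to 14.1 CPM in Cort, with a log2 fold change of 1.29 (-2.55 to 5.14). The window before its RefSeq start, chr7:126676419-126676668 on the minus strand, is shown for its palindrome with 2 mismatches, which ends close to the start, and capitals mark the sites as for Fam107a.
Sult1a1: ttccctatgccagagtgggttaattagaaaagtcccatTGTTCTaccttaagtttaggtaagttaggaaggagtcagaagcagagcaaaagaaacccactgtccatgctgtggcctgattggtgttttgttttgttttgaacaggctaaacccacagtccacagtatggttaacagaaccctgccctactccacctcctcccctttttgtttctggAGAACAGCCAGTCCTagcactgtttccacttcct
Pdk4, a kinase that shuts the pyruvate dehydrogenase complex, stood in vehicle at 15.9, 2.16 and 21.3 CPM and in Cort at 1.54, 25.3, 2.14 and 2.78 CPM at 2 days, with a log2 fold change of -0.74 (-2.55 to 1.06). Only the Cort sample C03 was high. Pnpla2, the adipose triglyceride lipase, had log2 fold changes of 0.36 (-0.33 to 1.05) at 2 days and -1.01 (-3.13 to 1.11) at 4 weeks, and Mfsd2a, the lipid transporter of the blood-brain barrier, of 0.24 (-0.54 to 1.03) and 0.03 (-2.07 to 2.14).

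Of the transcription factors and corepressors 5 were tested at each time, with medians of 0.24 and -0.15 on the log2 scale. Hif3a, an inhibitor of the hypoxia response, stood at 4 weeks at 6.09, 8.04 and 0.448 CPM in the vehicle samples C02, C03 and C04 and at 4.13, 39.8, 85.5 and 28.9 CPM in the Cort samples C07 to C10. C08, C09 and C10 stood above all vehicle samples and C07 did not, and the log2 fold change was 3.0 ± 1.16 (SE), with P = 0.0200 and Padj = 0.990, and p = 0.171 in the exact permutation test, and P in edgeR was no longer below 0.05 without C04 or C09. At 2 days it was low, at 0.203 to 2.49 CPM in vehicle and 1.19 to 10.4 CPM in Cort, with a log2 fold change of 2.27 (-0.14 to 4.68). Zbtb16, the zinc finger protein PLZF and a textbook target, missed P below 0.05 at both times in the samples compared. It stood at 25.9, 10.1 and 7.32 CPM in vehicle and at 37.7, 84.5, 3.21 and 19.5 CPM in Cort at 2 days, and at 1.69, 2.01 and 5.82 CPM and 2.27, 21.7, 38.7 and 18.8 CPM at 4 weeks. The log2 fold changes were 1.34 (-0.08 to 2.75) and 2.66 (-0.02 to 5.34). Among all 10 samples they were 1.84 ± 0.64 (SE) at 2 days and 3.26 ± 1.28 (SE) at 4 weeks, with Padj of 0.848 and 0.991 in edgeR.

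The Cort samples C06 at 2 days and C07 at 4 weeks were the lowest of the 4 compared for Zbtb16 and Cdkn1a, a pattern seen after the values were known. For Hif3a C07 was the lowest at 4 weeks as well, but at 2 days C10, at 1.19 CPM, lay below C06, at 1.79 CPM. C07 was at the same time the highest Cort sample at 4 weeks for Mt1, Glul and Fam107a. Klf9, a Krüppel-like factor induced by glucocorticoids in neurons, stood at 31.6, 49.8 and 41.7 CPM in vehicle and 46.1, 48.5, 20.4 and 79.2 CPM in Cort at 2 days, and at 72.0, 31.4 and 28.7 CPM and 37.3, 30.2, 45.9 and 46.7 CPM at 4 weeks. The groups overlapped at both times, and the log2 fold changes were 0.24 (-0.52 to 1.00) and -0.15 (-1.49 to 1.20). Bcl6, a transcriptional repressor, had log2 fold changes of 0.17 (-0.55 to 0.89) and -0.24 (-1.25 to 0.78), and the corepressor Tle3 of -0.36 (-1.18 to 0.45) and -1.47 (-3.79 to 0.86). Cebpb, a factor of the C/EBP family, had at most 11 counts in any sample and was not tested, so that its pair with Cebpd could not be compared.

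Of the genes that feed back on signalling, 7 were tested at 2 days and 6 at 4 weeks, and none reached P below 0.05 at either time, with medians of 0.31 and 0.13 on the log2 scale. Tsc22d3 encodes GILZ, a mediator of the anti-inflammatory action of glucocorticoids. It stood at 28.9, 15.5 and 19.3 CPM in vehicle and 21.3, 32.0, 21.8 and 29.8 CPM in Cort at 2 days, and the log2 fold change was 0.31 (-0.49 to 1.11). At 4 weeks it stood at 14.9, 6.84 and 12.1 CPM in vehicle and at 8.66, 13.6, 28.9 and 67.0 CPM in Cort. Only C09 and C10 stood above the vehicle range then, with a log2 fold change of 1.38 (-0.67 to 3.42).

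Sgk1 encodes a serum- and glucocorticoid-regulated kinase that controls ion channels and transporters. It stood at 30.4, 17.7 and 20.1 CPM in vehicle and 22.5, 59.9, 18.6 and 20.3 CPM in Cort at 2 days, where C03 alone was high. At 4 weeks it stood at 23.3, 48.2 and 19.3 CPM in vehicle and 72.0, 23.3, 17.0 and 44.9 CPM in Cort. The groups overlapped at both times, and the log2 fold changes were 0.42 (-0.48 to 1.33) and 0.36 (-1.21 to 1.94), so that both intervals included 0 and 1. The window before 1 of the RefSeq starts of Sgk1, chr10:21993640-21993889 on the plus strand, is shown because it carries the full palindrome with 0 mismatches beside 1 more hexamer, in a gene whose level did not pass the test, with capitals as for Fam107a.
Sgk1: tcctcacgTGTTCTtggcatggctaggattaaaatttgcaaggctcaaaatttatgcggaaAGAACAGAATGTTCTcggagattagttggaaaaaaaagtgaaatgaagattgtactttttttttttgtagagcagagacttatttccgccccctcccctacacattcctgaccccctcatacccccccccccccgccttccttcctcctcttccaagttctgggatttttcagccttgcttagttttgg
Other RefSeq starts of Sgk1 lie both upstream and downstream of this one, and the counts do not tell the transcripts apart.

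Nfkbia, the inhibitor of NF-kB, had a log2 fold change of 1.02 (-0.61 to 2.66) at 2 days, and at 4 weeks 1 vehicle sample, C03, stood at 50.3 CPM while the other 4 vehicle samples stood at 0 to 0.448 CPM. The log2 fold change at 4 weeks was -1.21 (-4.63 to 2.21), and 4.90 without C03. Dusp1, a phosphatase of MAP kinases, and Errfi1, an inhibitor of the EGF receptor, had log2 fold changes of -0.12 (-1.02 to 0.79) and 0.09 (-0.59 to 0.76) at 2 days and of 0.06 (-1.77 to 1.89) and 0.15 (-1.09 to 1.38) at 4 weeks. Ddit4, an inhibitor of mTORC1, had values of 0.62 (-0.39 to 1.64) and 0.12 (-1.98 to 2.22). Il6ra, the interleukin 6 receptor, had one of -0.71 (-2.51 to 1.09) at 2 days and was too low at 4 weeks, and Arrdc2, an arrestin domain protein, was too low at both. Cyclic AMP response elements, TGACGTCA, stood before the starts of Dusp1 and Errfi1, 2 of the 29 members with a window, or 6.9%, against 1.77% of genes.

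**Figure D3:**
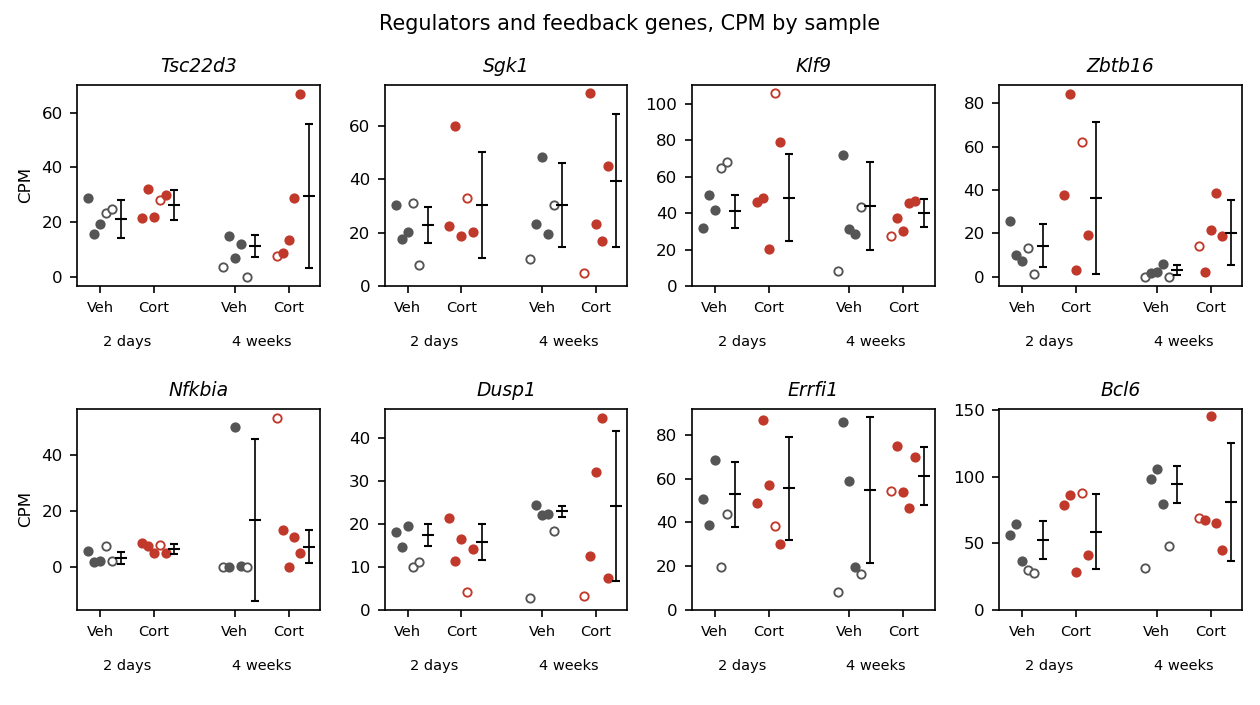
CPM (vertical axes, linear) by sample for 8 regulators and feedback genes, with groups, filled and open points and bars as in the plot of the 10 members above. Vehicle and Cort samples overlap for all 8 at both times, and single samples, such as C03 for Sgk1 at 2 days, stand far above the rest of their group.

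Counted by separation alone, Fam107a, Glul and Mt1 did not overlap between the groups at 2 days, with Cort higher, against 3.02% of all genes. At 4 weeks these were Fam107a, Mt2 and Sesn1, against 3.23%. With all 10 samples, 9 of 28 members were higher at P below 0.05 at 2 days, against 2.53% of genes, but none was called and none was free of overlap, against 0.334%. At 4 weeks 5 of 24 were higher at that grade, against 2.81%. In all 10 samples Fam107a, Mt1, Mt2, Hif3a and Zbtb16 were higher at P below 0.05 at both times, and the share of all genes doing so was not counted. The left-out Cort sample C08 was the highest Cort sample at 2 days for Fam107a, Glul, Mt1, Mt2, Cdkn1a and Sdc4, and without it 5 of 28 members were higher at P below 0.05 among the other 9 samples. That fit was added after the values were seen, and the share of all genes in it was not counted.

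Of 20 further genes of the pathway, from the receptors through chaperones and steroid enzymes to coregulators, 19 were tested at 2 days and 17 at 4 weeks. At 2 days Fkbp5, the co-chaperone that lowers receptor affinity, was higher in Cort, at 66.1 ± 24.8 CPM (SD, n = 4) against 22.4 ± 3.16 CPM (SD, n = 3), with a log2 fold change of 1.57 ± 0.35 (SE) and Padj = 0.243, and among all 10 samples its Padj was 0.0906. At 4 weeks the log2 fold change of Fkbp5 was -0.22 ± 0.88 (SE), at 54.1 ± 24.2 CPM in Cort against 62.5 ± 88.9 CPM in vehicle. With all 10 samples at 4 weeks it was 0.19 ± 0.85 (SE). In the samples compared at 4 weeks, the log2 fold change of Ncor1, a corepressor, was -0.90 ± 0.31 (SE), at P below 0.05 with Padj = 0.944. That of the receptor gene Nr3c1 was 0.26 ± 0.17 (SE) at 2 days and -0.56 ± 0.28 (SE) at 4 weeks, neither at P below 0.05. No gene passed among 6 other known targets, of which Per1, Pik3r1 and Irs2 were tested at both times and Anxa1 at 2 days.

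Marker levels of several cell types differed between the groups. The summed level of 7 oligodendrocyte markers was 181 to 239 CPM in vehicle and 305 to 393 CPM in Cort at 2 days, and 377 to 498 and 147 to 476 CPM at 4 weeks. At 2 days 1 of the 7 markers, Mobp, passed (55.9 ± 19.7 against 183 ± 22.8 CPM, Padj = 0.00324), while Cnp stood at 125 ± 21.9 and 117 ± 30.7 CPM (SD, n = 3 and 4). The 9 astrocyte markers overlapped at 2 days, with 5711 to 6241 CPM in vehicle and 5261 to 7255 CPM in Cort. At 4 weeks their sums did not, with 3515 to 3709 CPM in vehicle and 3969 to 5464 CPM in Cort. Slc1a2 (2025 ± 70.4 against 2807 ± 533 CPM) and Aldoc (709 ± 28.3 against 1056 ± 225 CPM) were then higher at P below 0.05, with Padj of 0.926 and 0.980 in edgeR. Of the 9 fitted changes 6 were above 0, while Aldh1l1, S100b and Aqp4 had log2 fold changes of -1.13, -0.34 and -0.06. The 8 markers of arcuate neurons, among them the peptides Agrp, Npy and Pomc, summed to 1017 to 1475 CPM in vehicle and 1591 to 2095 CPM in Cort at 2 days, and to 921 to 1333 and 391 to 819 CPM at 4 weeks. At 2 days Agrp, Npy and Pomc were higher at P below 0.05. Th, Tac2, Ghrh and Slc32a1 did not pass, with log2 fold changes of 0.37, 0.10, 0.04 and -0.18. At 4 weeks Npy was lower (445 ± 115 against 89.8 ± 61.9 CPM, Padj = 0.0966) and Tac2 higher (27.8 ± 17.9 against 111 ± 63.2 CPM, Padj = 0.918). The 10 markers of endothelial cells and pericytes and 5 markers of microglia overlapped between groups at both times. The former summed to 231 to 422 and 297 to 787 CPM, the latter to 121 to 232 and 92.2 to 232 CPM. Among these, Pecam1 and Tmem119 were higher at 4 weeks at P below 0.05, both with Padj = 0.990 in edgeR. The 5 markers of the neighbouring ventromedial nucleus also overlapped. They summed to 40.3 to 72.8 CPM in vehicle and 32.6 to 89.1 CPM in Cort at 2 days. For 4 weeks the sums were 3.22 to 15.2 and 3.30 to 99.9 CPM. Of the Cort samples then, C08, C09 and C10 stood above the vehicle range and C07 did not. Sox14 was higher at P below 0.05 (0.536 ± 0.929 against 16.1 ± 12.7 CPM, Padj = 0.990). The 8 tanycyte markers summed to 153 to 208 CPM in vehicle and 152 to 218 CPM in Cort at 2 days, and to 601 to 1021 and 238 to 666 CPM at 4 weeks. Gpr50 was then lower at P below 0.05 (382 ± 120 against 188 ± 71.9 CPM, Padj = 0.918 in edgeR). The 4 markers of perivascular macrophages were low throughout but did not overlap, at 0 to 2.99 CPM in vehicle and 5.57 to 13.5 CPM in Cort for 2 days. For 4 weeks the values were 0 to 1.34 and 2.77 to 46.7 CPM, and Pf4 had no count there. With all 10 samples per time the sums of each of these lists overlapped between vehicle and Cort at both times. Glul is an astrocyte enzyme, and the part of these differences in the results for Glul and the other members was not tested. In bulk tissue, fewer cells of a type and less RNA per cell cannot be told apart.

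**Figure D4:**
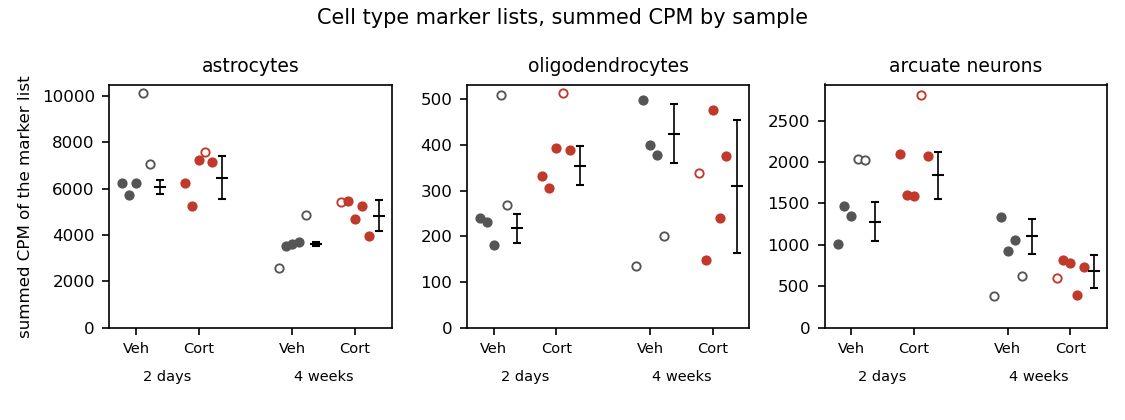
Summed CPM (vertical axes, linear from 0) of the marker lists of astrocytes, oligodendrocytes and arcuate neurons by sample, with groups, filled and open points and bars as in the plots of the members. The compared samples separate by treatment for astrocyte markers at 4 weeks, for oligodendrocyte markers at 2 days and for arcuate neuron markers at both times, where Cort is higher at 2 days and lower at 4 weeks. With the open points included, the groups overlap in every panel.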

How the data were processed

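Cort and vehicle were compared in laser-captured ARC of 20 samples. The RNA (integrity above 6.5) was amplified with the Ovation RNA-seq V2 kit and sequenced as single-end 50 base reads. The authors mapped these to GRCm38 with Rsubread and deposited raw counts per gene from featureCounts; the submitters' processing notes also name CASAVA 1.7 and DESeq2. From the deposited normalised tables only the symbols and the mean signal (counts divided by size factors) were used, the latter to check the join. Their 14 columns of single samples and the columns of the authors' own fold changes and p-values were not used. Columns were assigned to groups through the study's table of reads, which does not give each column's title.

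Counts were fitted with edgeR 4.0.16 (R 4.3.3; TMM scaling, default filter on low counts, quasi-likelihood test) on the samples the study kept, with Benjamini-Hochberg adjustment over all genes tested, and over both times for the interaction. Alternatives were edgeR's size factors, no filter, 10 counts in every sample, all samples, DESeq2 1.42.0, limma 3.58.1 voom with quality weights, and leaving out each sample. The scripts were tested on simulated data. Exact permutation tests were 2-sided. Members were described by sample if they had Padj below 0.1 or P below 0.05, with Sgk1, Tsc22d3, Klf9 and Zbtb16 whatever their values. The others were given by range and count, except that Pdk4 at 2 days was given by sample outside this rule. The members and lists were chosen with earlier results of these data known. Promoter windows were from RefSeq and gene positions from GENCODE, both on GRCm38.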

Additional observations from a re-analysis of the deposited data

Results flagged for a closer look

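In the groups below, 1 sample stood far from the others of its group. For normally distributed values chance gives this in about 5% of groups, a rate that skewed CPM with many zeros need not keep. The 192 partly overlapping groups were of 5 samples or of the 4 Cort samples compared. Those with equal values or with at most 3 counts in every sample were passed over. No cause was tested.

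At 2 days the left-out Cort sample C08 was high for Mt1 (385 CPM, the others 152 to 177) and Glul (2416 CPM, the others 1516 to 1720). The Cort sample C03 was high for Sgk1 (59.9 CPM) among the 4 samples compared, and for Pdk4 (25.3 CPM) among both 4 and 5 samples. The Cort sample C01 was high for Gadd45g (23.6 CPM, the others 5.89 to 6.40), and C06 was the Cort sample with counts of Plekhf1 (4.82 CPM). In vehicle, C02 was high for Il6ra (12.2 CPM), C04 had the counts of Lyve1 (0.862 CPM), and C05 was high for Arrdc2 (3.86 CPM). The left-out vehicle sample C07 was high for Angptl4 (12.6 CPM) and Plekhf1 (2.43 CPM), and C09 for Pnpla2 (132 CPM, the others 10.1 to 33.3).

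At 4 weeks the left-out Cort sample C06 was high for Nfkbia (53.5 CPM), Tle3 (33.4 CPM), Angptl4 (8.50 CPM) and Mfsd2a (218 CPM, the others 15.7 to 29.2). Among the Cort samples compared, C07 was high for Ddit4 (77.2 CPM, the others of 5 at 4.76 to 23.1), C08 for Bcl6 (145 CPM, the others of 5 at 44.9 to 69.3) and C10 for Pdk4 (6.76 CPM), while C10 was low for Mt2 (185 CPM, the others 241 to 251). In vehicle, C02 was high for Fam107a (364 CPM, the others 200.4 to 223) and Sult1a1 (6.43 CPM), C03 for Nfkbia (50.3 CPM), and the left-out C01, the shallowest library, was low for Dusp1 (2.75 CPM).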

How the results depend on the processing

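No paired analysis was possible because the count columns carry no replicate number of the labels. Size factors and no filter kept each count of members below within 1.5 times its value. With all 10 samples at 2 days 0 members were called in edgeR, although 9 were higher at P below 0.05 and voom with quality weights on the same samples called Fam107a and Glul. Without C08 among them, a fit added after seeing the data, 5 were higher at P below 0.05 and 0 were called. With no filter Mt2 was called as well at 2 days. At 4 weeks Glul was above P of 0.05 with all 10 samples and in DESeq2, which called 2 members (Fam107a and Sesn1). With 10 counts in every sample 15 members remained, 1 (Tle3) was lower at P below 0.05 and the median log2 fold change was 0.45, and with all 10 samples it was 0.80. The interaction passed for 2 members with all samples. The share of all genes in that fit, and with voom, DESeq2, no filter and 10 counts in every sample, was not counted.

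Leaving out 1 sample, 4 to 11 members were higher at P below 0.05 at 2 days and 4 to 7 at 4 weeks, 0 to 2 and 0 to 1 were called, and 0 to 1 were lower at 2 days (Pdk4, without C03). The lowest count at 2 days came without C04. The interaction passed for 1 to 3 members, the 3 being Cdkn1a, Mt1 and Sesn1 without C04 at 4 weeks, and the medians ranged from 0.37 to 0.66 at 2 days and from 0.37, without C07, to 0.68 at 4 weeks. The share of all genes in these fits, or in the fit without C08, was not counted, and the causes were not tested.

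No gene at P below 0.05 reversed its direction. Among the others, all 10 samples at 2 days gave log2 fold changes of -0.31 for Ddit4, 0.59 for Il6ra (0.23 by voom), 0.24 for Tle3 and -0.23 for Pnpla2. Without C08 these were 0.13 for Dusp1, -0.11 for Ddit4, -0.0635 for Klf9 and -0.32 for Pnpla2. At 4 weeks all 10 samples gave 0.70 for Nfkbia (1.98 by voom), 0.0151 for Klf9 (0.18 by voom), 0.10 for Bcl6 and, by voom, -0.10 for Dusp1. The interaction became 0.12 for Sult1a1 with all samples and 1.67 for Cdkn1a by voom.

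Leaving out 1 sample reversed, over ranges at 2 days, Bcl6 (-0.0711 to 0.40), Dusp1 (-0.29 to 0.00664), Errfi1 (-0.20 to 0.33), Gadd45g (-0.14 to 0.92), Il6ra (-1.14 to 0.38), Klf9 (-0.10 to 0.50), Mfsd2a (-0.12 to 0.43), Sesn1 (-0.17 to 0.32) and Sgk1 (-0.14 to 0.68). At 4 weeks it reversed Ddit4 (-0.97 to 0.75), Dusp1 (-0.42 to 0.36), Errfi1 (-0.25 to 0.65), Klf9 (-0.38 to 0.42), Mfsd2a (-0.52 to 0.98), Nfkbia (-1.78 to 4.90), Rhob (-0.10 to 0.43) and Sgk1 (-0.10 to 0.88). It reversed the interaction of Cdkn1a (-0.84 to 5.0), Glul (-0.18 to 0.11), Hif3a (-1.25 to 1.49) and Sult1a1 (-1.44 to 1.95). Interactions were listed for the 10 members with P below 0.05 at either time, a limit set after the values were seen. Over all 29 members tested, the sign of the interaction changed in at least 1 alternative for 16.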
